A study of Mus musculus with 3 samples.

Results

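The genes that write, maintain and remove DNA methylation were examined in thymocytes of 3 wild-type mice, the cells that develop into T cells in the thymus. The set comprised 9 genes: the DNA methyltransferase genes Dnmt1, Dnmt3a, Dnmt3b and Dnmt3l, the UHRF genes Uhrf1 and Uhrf2, and the dioxygenase genes Tet1, Tet2 and Tet3. They were taken by name, as probe sets whose platform annotation gives exactly 1 gene symbol, and all 9 were measured, by 12 probe sets, among 19938 named genes on the array. The mice carried the numbers 92, 103 and 106, had a wt genotype and a mixed background of FVB and C57BL6, and received no treatment that the labels record. They are the normal thymocytes of a study of T cell lymphoma in mice, whose tumours were not analysed here, and no age is stated for them. The labels also list T cell lymphoma as the disease state of these 3 samples, against their titles and genotype. For each sample they state 0.3 µg of RNA with an integrity number (RIN) of 3, which is low.

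DNA methylation in mammals is placed mainly on cytosines of CpG dinucleotides. DNMT3A and DNMT3B set new marks, and DNMT3L, which has no catalytic activity of its own, stimulates them in germ cells. DNMT1 copies the marks onto the new strand after replication, guided by UHRF1, which binds hemimethylated DNA. TET enzymes oxidise 5-methylcytosine, which leads to its loss by dilution or by base excision repair, and in T cells DNMT3A and TET2 are known as tumour suppressors.

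The sequence before each annotated transcription start was taken from RefSeq (GRCm38.p6), where all 9 genes had an entry, with 16 windows of 250 bases between them. The number of CpG dinucleotides, the letters that these enzymes act on, differed widely between the genes. The window with the most is shown beside one of Dnmt3l, whose windows all held fewer CpG than the median window in the table. The Tet2 window (chr3:133544391-133544640, minus strand) held 51 CpG, more than 99.9% of all 32851 windows in the table, while the first of the 3 Dnmt3l windows (chr10:78042037-78042286, plus strand) held 5. Both are written 5′ to 3′ with each CG in capitals.
Tet2: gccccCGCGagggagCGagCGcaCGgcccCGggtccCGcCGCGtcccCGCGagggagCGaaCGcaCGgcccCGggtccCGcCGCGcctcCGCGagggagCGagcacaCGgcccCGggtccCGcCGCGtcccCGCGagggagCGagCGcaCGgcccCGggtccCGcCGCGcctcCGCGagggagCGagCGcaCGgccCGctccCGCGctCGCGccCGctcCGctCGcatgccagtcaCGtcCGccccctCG
Dnmt3l: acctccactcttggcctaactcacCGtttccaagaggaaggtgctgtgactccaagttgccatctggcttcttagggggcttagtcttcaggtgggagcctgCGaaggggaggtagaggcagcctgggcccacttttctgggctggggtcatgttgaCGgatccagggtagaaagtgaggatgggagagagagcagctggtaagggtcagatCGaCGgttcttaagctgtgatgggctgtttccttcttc

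The median window in the table held 6 CpG, with quartiles at 2 and 16. Of the 16 windows of the 9 genes, 12 exceeded this median. Dnmt3l (5, 4 and 3 CpG in its 3 windows) and Tet1 (15 CpG) had no window above the upper quartile, and each other gene had at least 1. Genes with several windows have more chances of one, and the share of all genes with one was not computed. Dnmt3a had windows of 38, 40 and 15 CpG and Dnmt3b had 1 of 21. Uhrf2 had 23 and Tet3 had 17. In Dnmt1 and Uhrf1 the windows differed within the gene, with 2, 7 and 26 CpG in Dnmt1 and 10 and 30 in Uhrf1.

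**Figure D1:**
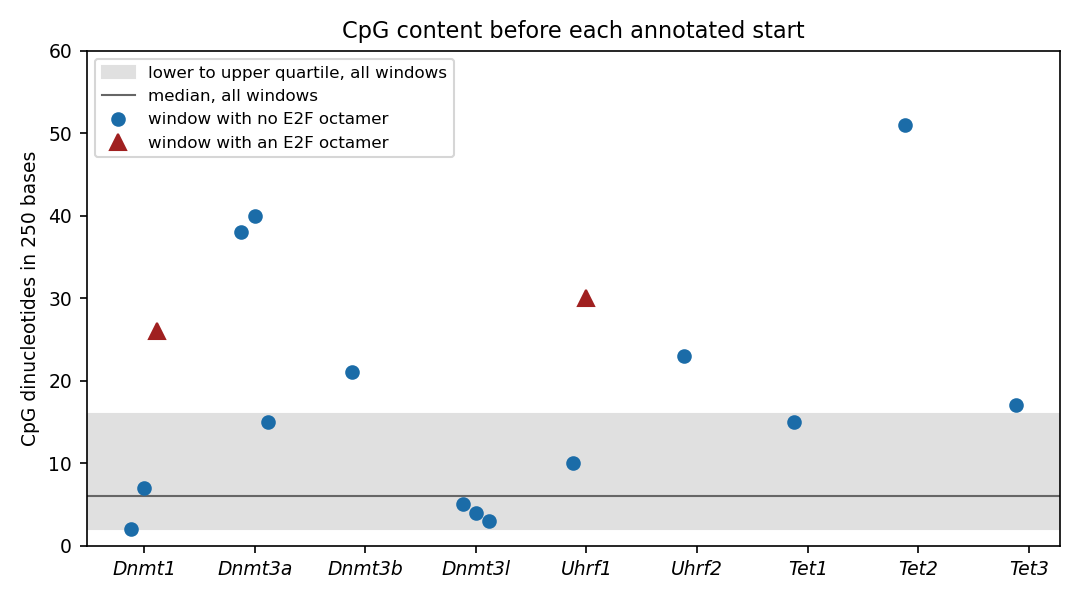
CpG dinucleotides in the 250 bases before each annotated start (vertical axis) for the 9 genes (horizontal axis); each point is 1 window, and the grey band spans the quartiles of all 32851 windows. Red triangles mark the 2 windows with an E2F octamer, in Dnmt1 (26 CpG) and Uhrf1 (30 CpG), and Dnmt3l has its 3 windows at 5 or below.

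E2F factors switch on genes for DNA replication, and their site was searched on both strands as any of 4 octamers, TTTGGCGC, TTTCCCGC, TTTCGCGC and TTTGCCGC. Of all windows 1.86% held one, as did 2 of the 16 windows here, 1 of Dnmt1 and 1 of Uhrf1. The octamer TTTCGCGC, or its reverse complement, was the match in both, and 0.256% of all windows held it. That share was taken after the matches were seen. All 4 octamers contain CpG, and the 2 windows held 26 and 30 CpG beside a median of 6. The shares over all windows are therefore not matched for CpG content. Neither match overlapped a GC box (GGGCGG) or a CCAAT box (CCAAT), which 32.7% and 33.9% of all windows contained. Such an overlap was uncommon, found in 84 of the 611 windows of the table with an E2F octamer. The 30 bases around each match are shown with the octamer in capitals, for chr9:20952824-20952853 (minus strand) and chr17:56304117-56304146 (plus strand).
Dnmt1: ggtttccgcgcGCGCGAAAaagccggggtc
Uhrf1: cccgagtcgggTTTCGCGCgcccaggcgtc
The Dnmt1 octamer begins 219 bases before the third annotated start and 137 bases downstream of the second, and the Uhrf1 octamer begins 185 bases before the second annotated start and 791 downstream of the first. The window of Tet3 held no such octamer. A match of letters does not show that a factor binds there.

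Each array gave log2 levels for 35557 probe sets, with medians of 6.70 to 6.72 on the 3 arrays. A gene was taken as above background when it exceeded, on every array, the 95th percentile of 1191 receptor genes of the nose (olfactory, vomeronasal and trace amine families). The thresholds lay between 5.92 and 6.10, lowest on the array of mouse 92 and highest on that of mouse 103. Thymocyte markers were above background in 12 of 12 measured cases, among them Cd3g, Cd4, Cd8a and Rag1. Rag2 and Cd1d1 had the widest ranges between mice of these markers (0.82 and 0.85). Probes differ in affinity, so levels are compared between mice for 1 gene and never between genes, and in a tissue sample fewer cells of a type and less RNA per cell cannot be told apart.

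Of the 9 genes, 8 were above background on all 3 arrays, where 61.7% of all named genes were. Dnmt3l was the exception and was below the threshold on every array. Without a second group, the measured questions were which genes were detected and how far the mice differed.

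The maintenance pair was well above background in every mouse. Dnmt1 had a log2 level of 10.88 for mouse 92, 10.90 for mouse 103 and 11.15 for mouse 106, a mean of 10.97 ± 0.15 (SD, n = 3). Uhrf1 had 10.98, 11.02 and 11.35 in mice 92, 103 and 106, a mean of 11.12 ± 0.20 (SD, n = 3). For both genes mice 92 and 103 lay close together, 0.02 apart for Dnmt1 and 0.04 apart for Uhrf1, and mouse 106 was the high one. Uhrf2, a relative of UHRF1 whose part in maintenance is less settled, had another order, with 10.29 for mouse 92, 10.06 for mouse 103 and 10.10 for mouse 106 (10.15 ± 0.12, SD, n = 3). Mouse 92 was the high one there.

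The genes for new methylation fell on both sides of the threshold. Dnmt3a was well detected, at 9.58 for mouse 92, 9.47 for mouse 103 and 9.62 for mouse 106 (9.56 ± 0.07, SD, n = 3), and its highest and lowest mice differed by 1.11-fold. Dnmt3b, at 6.76, 6.95 and 6.95 in mice 92, 103 and 106 (6.89 ± 0.11, SD, n = 3), exceeded the thresholds of its arrays by only 0.85, 0.84 and 0.95. With the 99th percentile of the receptor genes as the threshold it passed on 2 of the 3 arrays, so that 7 of the 9 genes were above background by that rule, as were 46.7% of all named genes. Dnmt3l, at 4.85, 5.21 and 5.04 in the same mice, was below the thresholds by 1.07, 0.89 and 0.96, which gives no order of the mice because the values lie within background.

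All TET genes were above background in all mice. Tet1, read by 3 probe sets, had 7.98 for mouse 92, 7.93 for mouse 103 and 8.01 for mouse 106 (7.98 ± 0.04, SD, n = 3), the narrowest range of the 9 genes at 0.08. Its probe sets 10369688, 10369690 and 10369702 ranged by 0.18, 0.15 and 0.07 and did not rank the mice alike, mouse 103 being the lowest on the first and the highest on the last. Averaging probe sets of unlike order narrows a range. Probe sets 10369688 and 10369690 each ranged more widely than Dnmt3a (0.14). Tet2 had 8.29 for mouse 92, 7.92 for mouse 103 and 8.18 for mouse 106 (8.13 ± 0.19, SD, n = 3), with mouse 103 the low one. Tet3 had the widest range, 0.42 or 1.34-fold, at 9.05 for mouse 92, 9.10 for mouse 103 and 9.47 for mouse 106 (9.21 ± 0.23, SD, n = 3). Its 2 probe sets both had mouse 106 highest, at 9.59 against 9.26 and 9.24 in mice 92 and 103 on probe set 10545682, and at 9.35 against 8.84 and 8.96 on probe set 10545692.

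**Figure D2:**
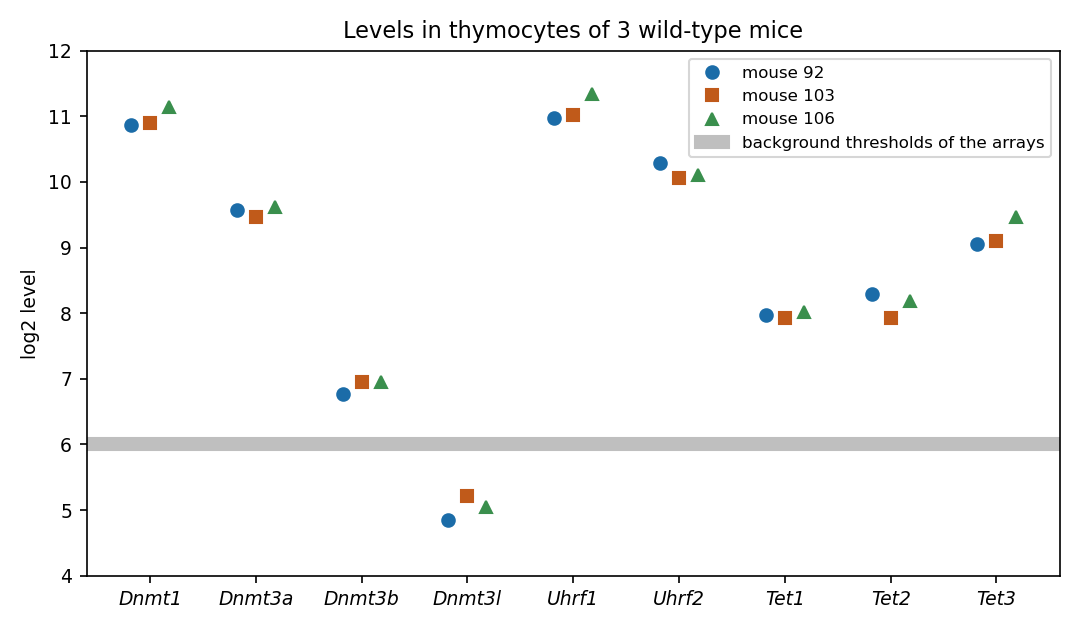
Log2 levels (vertical axis) of the 9 genes (horizontal axis) in each of the 3 mice, with 1 point per mouse; the grey band spans the background thresholds of the arrays, 5.92 to 6.10. Dnmt3l lies below the band in every mouse and Dnmt3b just above it; heights of different genes are not comparable, because probes differ in affinity.

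No gene of the set passed a test of its spread between mice. In limma each gene's variance over the 3 mice was set against the variance fitted for genes of its level, over 13307 genes above background on at least 1 array. Of the 8 genes tested, 0 passed the threshold of 0.05 after Benjamini-Hochberg adjustment and 0 reached it before adjustment, beside 30 genes, 0.225%, of all those tested. The 4 genes of smallest p were sex-linked: Xist was below background in mouse 92 and high in mice 103 and 106, and the Y-linked Eif2s3y, Uty and Kdm5d were the reverse, so that mouse 92 differed in sex from mice 103 and 106 by these transcripts. Tet3 had the smallest p of the 8 (variance ratio 2.42, limma adjusted p = 0.995), followed by Uhrf1 (variance ratio 2.13, limma adjusted p = 0.995). The SD was below the one fitted for the level in 4 of 8 genes (Dnmt3a, Dnmt3b, Uhrf2 and Tet1). The lowest variance ratio was 0.076, in Tet1, whose level is a mean of 3 probe sets. A gene at the level of Dnmt1 needed an SD of about 0.70 to be called, and one at the level of Dnmt3b about 0.81, so differences as small as those above could not be called with 3 arrays. The median range of the 8 genes above background was 0.25, as was that of all 12302 genes above background.

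**Figure D3:**
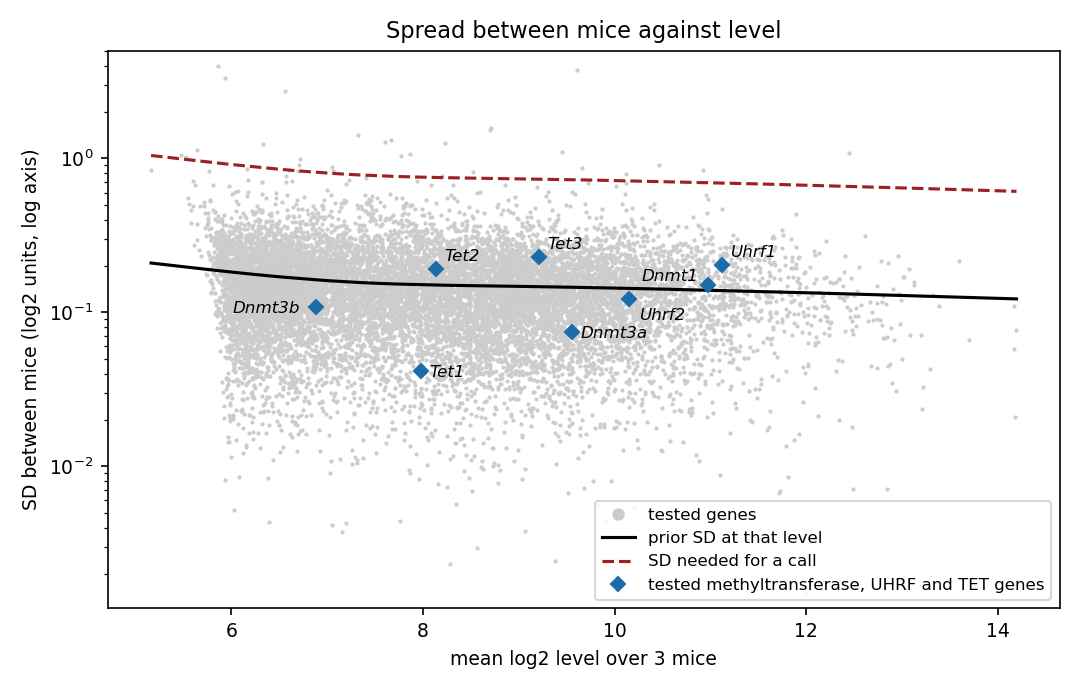
SD between the 3 mice (vertical log axis, log2 units) against mean log2 level (horizontal axis) for the 13307 tested genes (grey), with the 8 tested methyltransferase, UHRF and TET genes as blue diamonds. The solid line is the SD fitted for the level and the dashed line the SD needed for a call; all 8 diamonds lie below the dashed line.

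Although no single gene passed, the mouse with the highest level was most often mouse 106. It was highest for 6 of the 8 genes above background (Dnmt1, Dnmt3a, Dnmt3b, Uhrf1, Tet1 and Tet3), and for 23.7% of all genes above background. In Dnmt3a, Dnmt3b and Tet1 mouse 106 led the next mouse by only 0.04, 0.007 and 0.035. Quantile normalisation put Dnmt3b highest in mouse 103, which left 5 of 8, and Tet1 was highest in mouse 103 when it was read from its probe set of highest level alone. Dnmt1, Uhrf1 and Tet3 were highest in mouse 106 under all 3 other normalisations. Relative to mouse 92, mouse 106 was higher by 0.27 in Dnmt1, 0.37 in Uhrf1 and 0.42 in Tet3, and relative to mouse 103 by 0.25, 0.33 and 0.37. These differences rest on 1 mouse, and without it the ranges of the 3 genes were 0.02, 0.04 and 0.05.

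**Figure D4:**
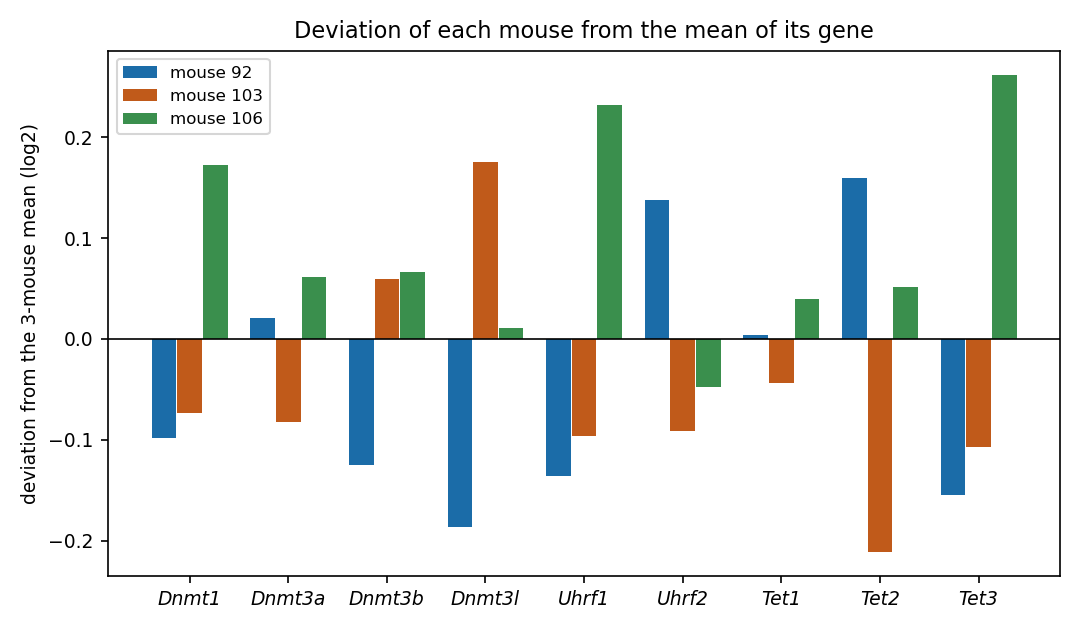
Deviation of each mouse from the 3-mouse mean of the gene (vertical axis, log2) for the 9 genes (horizontal axis), with 1 bar per mouse. Mouse 106 stands above the other mice in Dnmt1, Uhrf1 and Tet3, and mouse 92 in Uhrf2 and Tet2; Dnmt3l is within background.

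Genes of S phase and cell division, the phase in which DNMT1 and UHRF1 work, were also highest in mouse 106 in most cases. All 19 measured genes of that list were above background and 0 varied by the limma test; 15 of them were highest in mouse 106, and 14 after quantile or cyclic loess normalisation. Their mean deviation was 0.13 in mouse 106, -0.03 in mouse 103 and -0.09 in mouse 92, beside 0.10, -0.08 and -0.02 for the 8 methylation genes and -0.02, 0.01 and 0.01 for all genes above background. E2f1, which encodes a factor of the E2F family, had the widest range of the list, at 7.83 for mouse 92, 8.16 for mouse 103 and 8.48 for mouse 106. Mcm5, a subunit of the replicative helicase, was at 9.80, 10.27 and 10.34 in the same mice. Pcna, the sliding clamp that binds DNMT1, went the other way, at 12.43 for mouse 92, 12.30 for mouse 103 and 12.12 for mouse 106; it was chosen for mention after its values were seen. The part of cell division in the levels of Dnmt1, Uhrf1 and Tet3 was not tested.

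Most markers of blood cells of other types differed between the mice in another pattern, with mouse 92 low, and the thymic epithelium list did not share it. Of the 12 thymocyte markers, 9 were highest in mouse 92, 3 in mouse 103 and 0 in mouse 106. Their mean deviations were 0.09, -0.04 and -0.05 in the same mice. After cyclic loess normalisation 5 were highest in mouse 92, 5 in mouse 103 and 2 in mouse 106. Beside each of these lists, 61.7% of all named genes were above background and 0.225% of tested genes varied. Of 12 neutrophil genes, all measured, 7 were above background on all arrays, and all 7 were lowest in mouse 92. The mean level of the neutrophil list was 6.09 for mouse 92, 7.87 for mouse 103 and 7.47 for mouse 106, and 6 of its genes varied by the limma test: Ngp, Lcn2, S100a8, S100a9, Ltf and Mmp8. Mpo, Elane, Ly6g, Mmp8 and Retnlg were not above background on every array. The B cell list had mean levels of 6.48, 7.56 and 7.27 in mice 92, 103 and 106, with 7 of 10 genes above background, 1 varying (Cr2), Cd79a and Cd79b as the widest of those above background, and Bank1, Cr2 and Fcer2a not above background throughout. In the macrophage and dendritic cell list 11 of 12 genes were above background (not Adgre1), with means of 7.23, 7.81 and 7.42, and Lyz2 and Fcer1g had the widest ranges. Of these 11 genes, 8 were lowest in mouse 92 and 3 in mouse 106. C1qc was among the latter, at 7.70, 8.32 and 7.35 in mice 92, 103 and 106. Of 6 erythroid genes 4 were above background (not Klf1 and Epb42), with means of 6.91, 7.77 and 7.46. Alas2 varied and Car1 was next in range. Tfrc was lowest in mouse 103 and the other 3 of those 4 genes in mouse 92. The thymic epithelium list had 6 of 9 genes above background, with means of 6.88, 7.06 and 6.89 in mice 92, 103 and 106, mouse 103 being the high one; Krt8 and Epcam had the widest ranges, and Foxn1, Krt5 and Krt14 were not above background throughout.

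Of the 8 methylation genes above background, 4 were lowest in mouse 92 (Dnmt1, Dnmt3b, Uhrf1 and, by the mean of its probe sets, Tet3) and 2 were highest there (Uhrf2 and Tet2), with ranges between mice of 0.19 to 0.42. The part of other cells or of sex in these differences was not tested.

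Transcripts of the partners of DNMT1 and UHRF1 were mostly detected. Of 14 measured maintenance partners 12 were above background and 0 varied by limma. Mouse 92 had the highest level for 7 of these 12, mouse 106 for only 4 and mouse 103 for 1. For this and the following lists, 61.7% of all named genes were above background and 0.225% of tested genes varied. At that rate, 0 varying genes in a short list says little. Lig1, the ligase that joins Okazaki fragments and recruits UHRF1, had the widest range, at 9.74 for mouse 92, 9.88 for mouse 103 and 10.15 for mouse 106, with mouse 106 highest as for Dnmt1 and Uhrf1. Hdac2, a histone deacetylase, had the opposite order, at 11.43, 11.24 and 11.08 in the same mice. Zfp57, which protects imprints, and Dppa3, an oocyte and germ cell protein that limits UHRF1, did not exceed background on every array; Zfp57 was at 5.78, 6.12 and 5.84 and Dppa3 at 4.80, 4.76 and 5.07.

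Among genes for the marks that steer DNMT3 enzymes, listed together with Trdmt1, all 7 were above background and 0 varied. Setd2, which trimethylates histone H3 at lysine 36, was at 10.25 for mouse 92, 9.79 for mouse 103 and 10.26 for mouse 106. Trdmt1, a relative of the DNA methyltransferases that acts on transfer RNA, was at 7.36, 7.14 and 6.78 in the same mice. Of 8 other genes with a CXXC domain, which binds unmethylated CpG and is also found in DNMT1, TET1 and TET3, 7 were above background and 0 varied. Cxxc4 was the exception, at 5.70, 5.83 and 5.85. Kmt2a, a histone H3 lysine 4 methyltransferase, had the widest range of these, at 10.90 for mouse 92, 10.65 for mouse 103 and 11.25 for mouse 106, and Kdm2a, a histone demethylase, was at 10.55, 10.11 and 10.46.

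Downstream of the TET enzymes, 13 of 15 measured genes for demethylation and base excision repair were above background and 0 varied. Lig3, a ligase of base excision repair, was at 8.52 for mouse 92, 8.35 for mouse 103 and 8.65 for mouse 106, and Apex1, the abasic site endonuclease, at 8.93, 9.22 and 9.02. The glycosylase gene Neil2 and the deaminase family gene Apobec2 were not above background on any array. A list of methyl-CpG readers and other genes of their families was above background in 7 of 7 measured cases, with 0 varying. Zbtb33, which encodes Kaiso, was at 9.61, 9.19 and 9.09 in mice 92, 103 and 106. Mbd6, of the MBD family, was at 8.63, 8.50 and 8.80. All 10 measured TET cofactor and partner genes were above background and 0 varied, with the widest ranges in Sdhb, a subunit of succinate dehydrogenase (9.10, 9.47 and 9.21), and Idh1, an isocitrate dehydrogenase (8.35, 8.37 and 8.10). Mouse 106 had the highest level for 0 of these 10 genes, and mice 92 and 103 for 5 each.

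The supply of methyl groups was read from 15 genes of the methionine and folate cycle, of which 11 were above background and 0 varied. Shmt2, the mitochondrial serine hydroxymethyltransferase, was at 8.15 for mouse 92, 8.40 for mouse 103 and 8.63 for mouse 106. Mat2b, the regulatory subunit of the S-adenosylmethionine synthetase of most tissues, was at 10.42, 10.22 and 9.98. The genes not above background on every array were Mat1a, Bhmt, Gnmt and Nnmt, the first 3 of which are best known as liver enzymes.

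**Figure D5:**
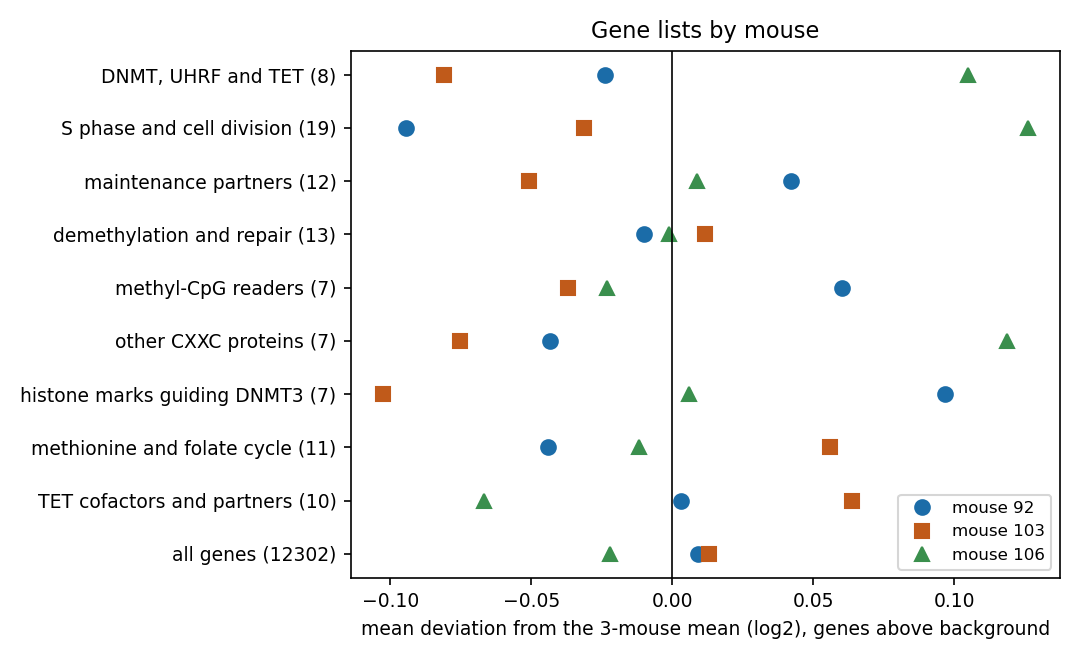
Mean deviation of each mouse from the 3-mouse mean (horizontal axis, log2) for 9 gene lists and all genes (vertical axis), over the genes above background, whose number stands in brackets. Mouse 106 is highest for the DNMT, UHRF and TET genes (0.10), the S phase genes (0.13) and the other CXXC genes (0.12), while all genes together lie at -0.02 in that mouse.

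Germline genes that promoter methylation is known to silence in somatic tissues of the mouse were read as a contrast. Of 17 measured, 0 were above background on all 3 arrays, and Piwil2 was above it in mouse 92 only. Dazl, an RNA-binding protein of germ cells, was at 4.17 for mouse 92, 4.31 for mouse 103 and 4.42 for mouse 106. Ddx4 (3.99, 3.98 and 3.87), Mael (3.64, 3.61 and 3.84) and Sycp1 (3.78, 3.86 and 3.63) were likewise near the receptor medians of 4.02, 4.18 and 4.07. Arrays of RNA do not measure methylation, and these values say only that the genes were not detected.

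The pattern of Tet3, the gene of widest range, was compared with that of the other 12301 genes above background by the Euclidean distance of centred log2 levels over the 3 mice. The nearest genes were Rpl8 (distance 0.006), Slfn10-ps (0.008) and Socs7 (0.008). With 3 mice many genes share such a pattern, and 130 lay within 0.1 of Tet3.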

How the data were processed

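Thymocyte RNA was extracted with Trizol, biotin-labelled and hybridised to Affymetrix MoGene-1_0-st arrays, per the labels' protocols. The deposited log2 levels were made with Affymetrix Expression Console, per the submitters' processing notes; its version, the background correction and the normalisation are not given in the sources here, and the log2 scale was read from the values (1.76 to 14.96). Of 35557 probe sets, 21789 had 1 gene symbol; 1621 with several and 12147 not listed stayed unnamed. Probe sets of a gene were averaged.

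The spread between mice was tested in R 4.3.3 with limma 3.58.1, from an intercept fit and eBayes with a trended prior that is not robust (10.3 prior degrees of freedom), by an upper-tail F test of each variance over its prior. The code was tested on simulated data. The p-values reflect only how these 3 samples differ, which may be technical.

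The genes, lists and tests were chosen with earlier results of these data known. Named from each list were genes not above background on all arrays (the first 4 in list order where over 5). Also named were the 2 widest ranges among the rest and genes that varied. For the widest of the 9 genes, the 3 nearest in pattern were named. Outside this rule, Cd3g, Cd4, Cd8a, Rag1, Pcna, C1qc, Tfrc and Piwil2 were named.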

Additional observations from a re-analysis of the deposited data

How the results depend on the processing

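The 9 genes kept their calls under most settings. Of the 11 alternatives to the limma test, 0 called any of the genes tested, with the smallest adjusted p among them between 0.861 and 0.998. Before adjustment 1 gene was under 0.05 in 1 alternative: Uhrf1 without mouse 92 (limma adjusted p = 0.861). The number above background was 8 with another normalisation, with the probe set of highest level and without any one mouse, and 7 at the 99th percentile. Across all genes the count of varying genes was 30, against 18 with quantile normalisation, 18 with cyclic loess and 44 with a robust prior whose degrees of freedom are shared by all genes. With a robust prior that sets them gene by gene, limma made 0 calls, while 599 genes had p under 0.05 before adjustment. With 2 arrays it was 58 without mouse 92, 51 without mouse 103 and 84 without mouse 106. The median range of the 9 genes, 0.27, was 0.10 to 0.19 with 1 mouse left out, since a range over fewer mice cannot be wider. No paired analysis was possible because the labels give 1 group. The number of arrays limits the precision, and Dnmt3b lies close to background.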
